A study of Mus musculus with 18 samples.

Results

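The effect of an Irf3 hairpin on gene expression in adipocytes exposed to lipopolysaccharide (LPS) was measured by RNA sequencing of 3T3-L1 adipocytes, fat-storing cells obtained by differentiating a line of mouse fibroblasts. The comparison takes 6 of the 18 libraries of the study, chosen by their titles: 3 of adipocytes given a short hairpin RNA against Irf3 and LPS (shIrf3 + LPS), and 3 of adipocytes given the control hairpin, named shLuc in the titles, and LPS (shLuc + LPS). Both groups came from mature adipocytes at passage 15 that were transduced by lentivirus for 6 days, and LPS followed for another 6 days, a time the labels give only for the knockdown cells, with the LPS medium renewed every other day. Libraries without LPS (shIrf3 and shLuc, 3 each) were used where stated. The labels give passage 15 and 6 days of transduction for these too, but not whether the cells were kept for the further 6 days. An effect of LPS therefore cannot be told apart from one of time after transduction. The labels give neither the dose of LPS nor the number of hairpins against Irf3, so an effect of the hairpin on other transcripts cannot be told apart from that of the knockdown. They do not say whether the 3 libraries of a group are separate cultures, so the p-values cover no more than the library-to-library spread, and that spread may be technical.

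LPS is a component of the outer membrane of Gram-negative bacteria and is sensed at the cell surface by Toll-like receptor 4. The receptor signals through the adaptor MyD88 to NF-kB, which drives inflammatory cytokine genes, and through the adaptor TRIF to the kinase TBK1, which phosphorylates IRF3. Phosphorylated IRF3 enters the nucleus and activates type I interferon and many antiviral genes. Adipocytes carry Toll-like receptor 4 and respond to LPS by secreting cytokines and acute phase proteins.

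The table of counts lists 27473 gene models under UCSC known-gene identifiers of mouse build mm9 and pairs none of them with a symbol, and 0 of the identifiers occurred in the reference name tables used here. Gene models are therefore given by identifier and mm9 position, with no name or function. For the same reason the level of Irf3 itself, which would check the hairpin, and the adipocyte markers, which would check the labelled cell type, are not reported here. Total counts ran from 23749441 to 30533292 in shIrf3 + LPS and from 27719890 to 30893979 in shLuc + LPS. The first principal component of log2 CPM (read counts scaled by library size, not by length) held 46.1% of the variance, with the shIrf3 + LPS libraries between -21.0 and -12.8 and the shLuc + LPS libraries between 13.9 and 19.6.

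Knockdown under LPS shifted many gene models in both directions, mostly by small amounts. Of 14668 gene models tested, 2848 (19.4%) passed an adjusted p of 0.05 (edgeR's quasi-likelihood test, Benjamini-Hochberg adjustment), with 1495 higher in shIrf3 + LPS (10.2%) and 1353 lower (9.22%). In such bulk samples, fewer cells of a type and less RNA per cell cannot be told apart. The median log2 fold change, shIrf3 + LPS over shLuc + LPS, was 0.36 among those higher and -0.26 among those lower, against 0.00 over all gene models tested. A change of less than 1.5-fold was fitted for 76.7% of those higher and 87.5% of those lower. A change of 2-fold or more was fitted for 116 of the higher gene models (0.791% of those tested) and 56 of the lower ones (0.382%), and one of 4-fold or more for 10 and 3. The CPM values of the groups did not overlap for 1458 of the 1495 higher and 1321 of the 1353 lower gene models, and they did not overlap for 35.5% of all gene models tested. The biological coefficient of variation among these libraries was 0.0551, and the median standard error of a log2 fold change was 0.08.

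**Figure D1:**
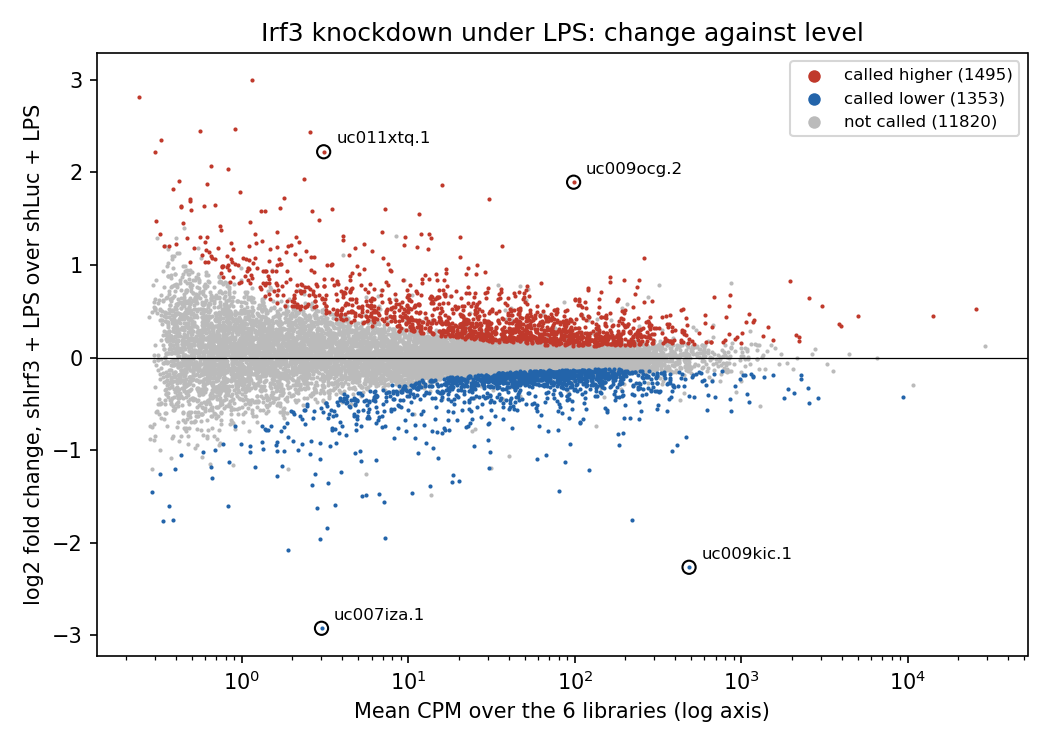
Fitted log2 fold change, shIrf3 + LPS over shLuc + LPS (vertical axis), against the mean CPM over the 6 libraries (horizontal log axis) for each of the 14668 gene models tested. Red points were called higher (1495), blue points lower (1353) and grey points were not called, and circles mark the 4 gene models named in the text.

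The number of calls moved with the libraries in the fit. With the shIrf3 and shLuc libraries without LPS added to the fit the calls came to 733 higher and 495 lower, and with all 18 libraries of the study to 205 and 173. Lower calls numbered 853 without shIrf3 + LPS replicate 1, 829 without shLuc + LPS replicate 2 and 820 without shLuc + LPS replicate 3.

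The largest rise among gene models at 5 CPM or more in the higher group, with exons on 1 strand only and no overlap between the groups, was that of uc011xtq.1. This gene model lies on the plus strand of chromosome 11 (46268433 to 46294756, 7 exons, 2724 exonic bases). It had 5.84, 4.77 and 4.69 CPM in the shIrf3 + LPS libraries, against 0.985, 1.20 and 1.09 CPM in the shLuc + LPS libraries. All 3 knockdown libraries stood several-fold above every control library, and the log2 fold change was 2.22 with a standard error of 0.17 (edgeR adjusted p = 3.61e-07). The depth behind the control values was 28, 37 and 31 reads. In the libraries without LPS, whose CPM values were scaled among those 6 libraries, the same gene model had 5.44, 6.08 and 5.01 CPM in shIrf3, against 2.49, 2.31 and 1.72 CPM in shLuc, and the fold change on the log2 scale was 1.34 (SE 0.18, edgeR adjusted p = 0.00844). The ranges of the knockdown libraries with and without LPS overlapped, whereas the control libraries with LPS all lay below those without it.

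The second, uc009ocg.2, lies on the plus strand of chromosome 9 (7272514 to 7283333, 10 exons, 2675 exonic bases). Its level was 143, 165 and 156 CPM in shIrf3 + LPS, against 43.5, 38.3 and 43.1 CPM in shLuc + LPS. The log2 fold change of 1.89 had a standard error of 0.06 (edgeR adjusted p = 4.05e-11), and the spread within each group was small beside the gap between them. Per length this is 53.5 to 61.7 RPKM (CPM divided by the exonic length in kilobases) in shIrf3 + LPS and 14.3 to 16.2 RPKM in shLuc + LPS, whereas uc011xtq.1 reached 1.72 to 2.14 RPKM in shIrf3 + LPS and 0.362 to 0.441 RPKM in shLuc + LPS. Without LPS uc009ocg.2 had 111, 103 and 90.6 CPM in shIrf3, against 39.5, 38.9 and 29.6 CPM in shLuc, and the log2 fold change there was 1.49 with a standard error of 0.12 (edgeR adjusted p = 0.00205). The ranges of the control libraries with and without LPS overlapped, and the knockdown libraries with LPS all lay above those without it.

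The largest fall was that of uc007iza.1, on the minus strand of chromosome 11 (54971970 to 54998579, 10 exons, 3249 exonic bases). It had 0.620, 0.636 and 0.852 CPM in shIrf3 + LPS, against 4.89, 5.69 and 5.34 CPM in shLuc + LPS. Each knockdown library held 16 to 20 of its reads and each control library 139 to 175, and the log2 fold change was -2.93 with a standard error of 0.18 (edgeR adjusted p = 3.97e-08). The values without LPS were 0.690, 0.886 and 0.368 CPM in shIrf3, against 3.45, 3.93 and 4.72 CPM in shLuc, and the log2 fold change there was -2.61, with a standard error of 0.28 (edgeR adjusted p = 0.00375).

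The next, uc009kic.1, was a far more abundant gene model, on the plus strand of chromosome 7 (147949731 to 147960876, 9 exons, 1736 exonic bases). It had 165, 200 and 135 CPM in shIrf3 + LPS, against 819, 758 and 831 CPM in shLuc + LPS. The log2 fold change was -2.27 with a standard error of 0.14 (edgeR adjusted p = 0.000110), and the highest knockdown library stayed far below the lowest control library. Per length it stood at 78.0 to 115 RPKM in shIrf3 + LPS and 437 to 478 RPKM in shLuc + LPS. Without LPS it had 64.5, 102 and 108 CPM in shIrf3, against 546, 495 and 463 CPM in shLuc, and fell by 2.45 on the log2 scale (SE 0.19, edgeR adjusted p = 0.00282).

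**Figure D2:**
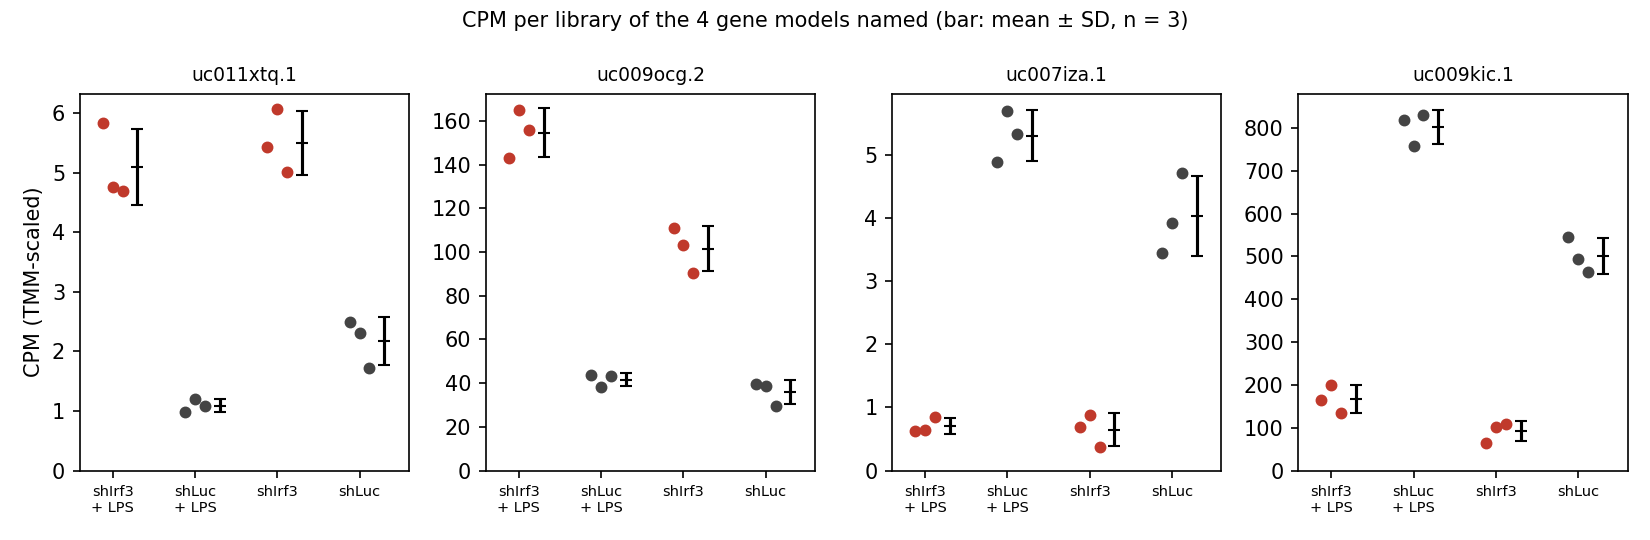
CPM per library (vertical axes, each from 0) of the 4 gene models named, in shIrf3 + LPS, shLuc + LPS, shIrf3 and shLuc; each point is 1 library and the bar beside it the mean ± SD of 3. In all 4 panels the shIrf3 + LPS points lie apart from the shLuc + LPS points, and the shIrf3 points apart from the shLuc points in the same direction.

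The 15 gene models per direction that the same rule ranks first were spread over 10 chromosomes in each direction. Those higher had log2 fold changes from 1.27 to 2.22, with a median of 16.9 CPM in shIrf3 + LPS and 5.91 CPM in shLuc + LPS. The size of the change ran from 1.23 to 2.93 on the log2 scale among the 15 that were lower, which had a median of 5.59 CPM in shIrf3 + LPS and 15.4 CPM in shLuc + LPS. In the libraries without LPS, which did not enter the ranking, all 15 of the higher ones had a positive log2 fold change and 13 were called higher, and all 15 of the lower ones had a negative one and 14 were called lower. Over all gene models called under LPS, the sign was shared by 93.0% of the higher and 92.4% of the lower ones, and 13.0% and 11.1% were also called without LPS.

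Large changes were mostly those of weakly expressed gene models. Of the 116 that rose at least 2-fold, 49 had a mean under 1 CPM, 53 lay between 1 and 10 CPM, 13 between 10 and 100 CPM and 1 above 100 CPM. For the 56 that fell at least 2-fold these numbers were 12, 27, 13 and 4. At every fold size together the share called increased with the level, with 3.16% higher and 0.843% lower under 1 CPM and 15.6% higher and 15.5% lower above 100 CPM, while the median standard error of the log2 fold change was 0.33 and 0.05 in these classes. Most calls under 1 CPM were thus large changes, with 49 of 60 higher and 12 of 16 lower ones at least 2-fold, and small changes there could be missed. Of the 703 single-exon gene models tested, 5.41% were called higher and 5.83% lower, with a median standard error of 0.15.

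The most abundant gene models called changed by modest amounts. The 5 highest in level among those that rose lay between 4360 and 30100 CPM in shIrf3 + LPS and between 3390 and 20900 CPM in shLuc + LPS, with log2 fold changes from 0.34 to 0.53. Of these, 3 lie on chromosome M, the mitochondrial genome. The 5 highest among those that fell lay between 2120 and 7950 CPM in shIrf3 + LPS and between 2440 and 10700 CPM in shLuc + LPS, with log2 fold changes from -0.49 to -0.19. Of all counts, the gene models called higher held 20.5% to 20.9% in the shIrf3 + LPS libraries and 16.1% to 16.4% in the shLuc + LPS libraries, and those called lower held 12.9% to 13.7% in shIrf3 + LPS and 16.2% to 16.8% in shLuc + LPS. Both lists were chosen from these same libraries, which fixed the direction of these differences, so only their size is described.

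Transcripts of the mitochondrial genome, which codes for subunits of the respiratory chain and ATP synthase and for the RNAs of the mitochondrial ribosome, were more abundant in the knockdown under LPS. The share of counts on chromosome M was 5.82%, 6.39% and 6.10% in shIrf3 + LPS, against 4.21%, 4.52% and 4.37% in shLuc + LPS. The means were 6.10% ± 0.285 and 4.37% ± 0.155 (SD, n = 3 each), a difference of 1.74 points. The groups did not overlap, and the exact two-sided permutation test gave p = 0.1, the smallest that 3 libraries against 3 allow. The 95% Wilson intervals of these shares reach at most 0.0096 points to either side and cover counting error only. All 7 chromosome M gene models tested were called higher, with log2 fold changes from 0.25 to 0.83 and edgeR adjusted p-values up to 0.00444. Of the 7, 3 list exons on both strands and can mix transcripts of both. These 7 stayed higher with each of the 6 libraries left out in turn, but 2 were called with the libraries without LPS in the same fit and 0 with all 18. The log2 fold changes were close to those above in both fits, from 0.25 to 0.83 with 12 libraries and from 0.23 to 0.80 with 18. Without LPS the share was 6.53%, 7.17% and 6.64% in shIrf3, against 14.2%, 2.88% and 5.19% in shLuc. The shLuc libraries lay on both sides of the shIrf3 libraries, and 0 of the 7 gene models were called by edgeR, with 2 negative log2 fold changes (-1.61 and -0.64) and 5 positive ones from 0.17 to 0.50. The 2 negative ones were uc009vev.1 (70 to 852) and uc009vew.1 (1094 to 3703), which varied most among the shLuc libraries. In shLuc replicates 1, 2 and 3 uc009vev.1 had 18889, 214 and 1639 CPM, and uc009vew.1 had 110160, 4669 and 24620 CPM. The share of counts weighs uc009vew.1 most, which under LPS had means of 30073 CPM in shIrf3 + LPS and 20870 CPM in shLuc + LPS. The RNA went through ribosomal depletion, and how far mitochondrial ribosomal RNA left after it enters the share was not tested. Without shLuc replicate 1, the library at 14.2%, the 7 ran from 0.49 to 1.29, and 5 of the 7 were called higher. Without shLuc replicate 2 the 7 ran from -2.18 to 0.43 and without shLuc replicate 3 from -2.08 to 0.40, with 0 called in either fit. Replicate 1 was singled out by its share on chromosome M, so the fit without it is a description only.

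**Figure D3:**
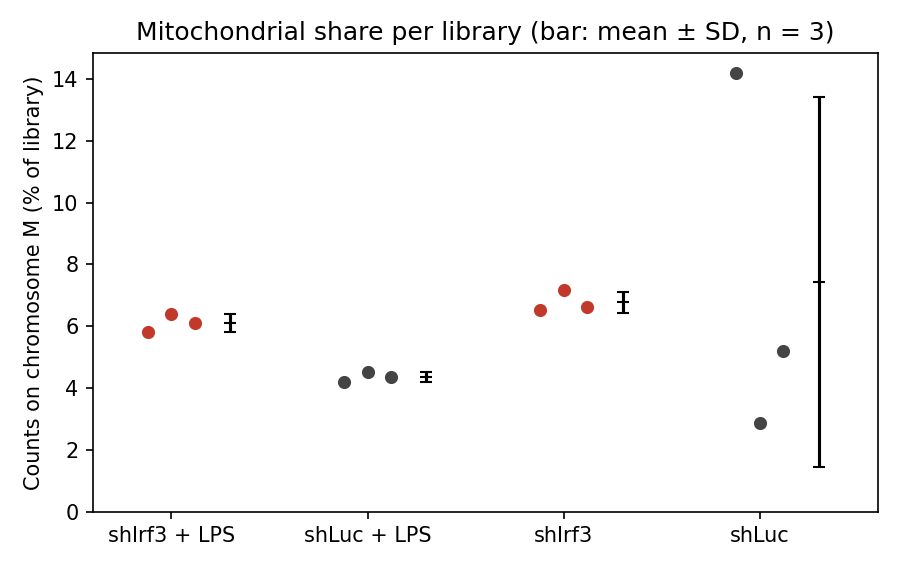
Share of each library's counts on chromosome M (percent, from 0) in shIrf3 + LPS, shLuc + LPS, shIrf3 and shLuc; points are libraries and the bar beside them is the mean ± SD of 3. The shIrf3 + LPS libraries lie between 5.82% and 6.39%, above all shLuc + LPS libraries, whereas the shLuc libraries without LPS range from 2.88% to 14.2%.

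Among the 20 chromosomes with at least 100 gene models tested, the share called higher ran from 6.63% on chromosome 12 to 15.7% on chromosome X, and the share called lower from 6.75% on chromosome X to 12.1% on chromosome 15. Chromosome X thus stood at both ends, with 77 gene models higher and 33 lower of 489 tested, against 10.2% higher and 9.22% lower over all chromosomes. Higher calls on chromosome X outnumbered lower ones in every other setting and leave-one-out fit run, from 13 against 2 with all 18 libraries to 90 against 34 without shIrf3 + LPS replicate 2. Those fits reuse the same libraries, so they are not independent. Over all gene models the numbers were 205 against 173 and 1680 against 1410, and higher calls outnumbered lower ones in every setting except library totals. The chromosome was singled out for these values. In the libraries without LPS the chromosome had 10 gene models higher and 6 lower of 482 tested, or 2.075% and 1.245%, against the 1.63% and 1.4% over all chromosomes. Of its 76 gene models called higher under LPS and tested there, 72 had a positive log2 fold change, a share near the 93.0% of all gene models called higher. The median log2 fold change of chromosome X was 0.05 with LPS and 0.00 without it.

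**Figure D4:**
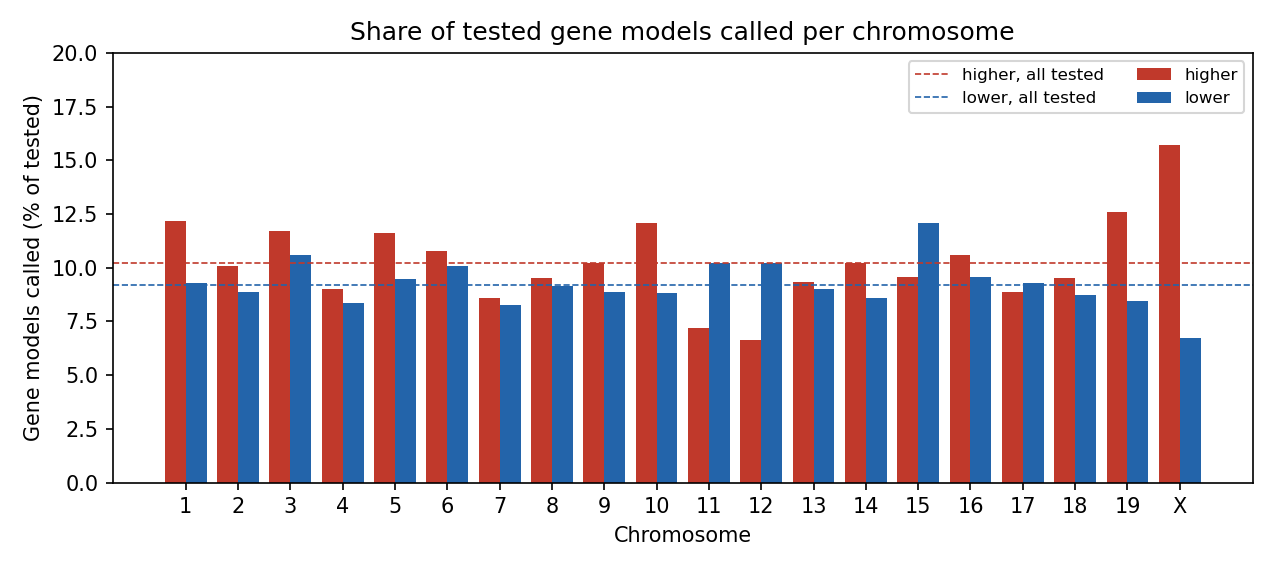
Gene models called higher (red) and lower (blue) in shIrf3 + LPS as percent of those tested on each chromosome with at least 100 tested; dashed lines give the shares over all gene models, 10.2% and 9.22%. Chromosome X has the tallest red bar, at 15.7%, and the shortest blue bar, at 6.75%.

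Some neighbouring gene models were called in the same direction. Taken in order of position among the gene models tested, there were 36 runs of at least 3 neighbours called higher and 27 of at least 3 called lower, of which 2 and 4 held 5 or more. With 10.2% of all gene models tested called higher and 9.22% lower, unrelated neighbours would also form some runs. The number to be expected from these shares was not computed. Apart from the 7 on chromosome M, the longest was a run of 6 lower on chromosome 3 (116215997 to 116511084), with log2 fold changes from -0.49 to -0.14. Among the runs of 5 or more, the one with the largest changes held 5 gene models lower within 304 kb of chromosome 4 (115146395 to 115449932), with log2 fold changes from -1.95 to -0.28. Of those 5, 3 fell at least 2-fold, and without LPS all 5 had a negative log2 fold change and 4 were called lower. Among all gene models called lower under LPS, 92.4% were negative and 11.1% called, but most of these changed little. Of the 15 lower gene models ranked first by size of change, 14 were called lower without LPS. A run of 5 on chromosome 17 (35378691 to 35579496) fell by nearly equal amounts, from -0.59 to -0.45. All 5 were negative without LPS as well, but 0 were called lower there. A run of 5 higher spanned 383 kb of chromosome 5 (65344334 to 65726878), with log2 fold changes from 0.20 to 1.10. The runs were chosen for these values, which are a description, and overlapping neighbours may share reads.

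The same knockdown was then read in the libraries without LPS, none of which entered the comparison above. Of the gene models called higher under LPS, 1480 were tested there and 1377 of them had a positive log2 fold change (93.0%), against 47.7% of all gene models tested in both. Of those called lower, 1237 of 1339 had a negative one (92.4%), against 52.3% of all. The comparison without LPS had 436 calls among 14380 gene models (3.03%) by edgeR at the same threshold, 235 of them higher (1.63%) and 201 lower (1.4%). Called higher in both were 195, which is 13.0% of the list with LPS and 83.0% of the list without it. Called lower in both were 150, or 11.1% and 74.6%, and 0 gene models were called in opposite directions. Over all gene models called under LPS, the median log2 fold change of the higher ones was 0.36 with LPS and, among those tested there, 0.27 without it, and that of the lower ones -0.26 with LPS and -0.18 without it. Among those called in both, which had to pass the threshold in the wider spread without LPS too, the median log2 fold change was 0.51 with LPS and 0.53 without it for the higher ones, and -0.58 with LPS and -0.69 without it for the lower ones.

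**Figure D5:**
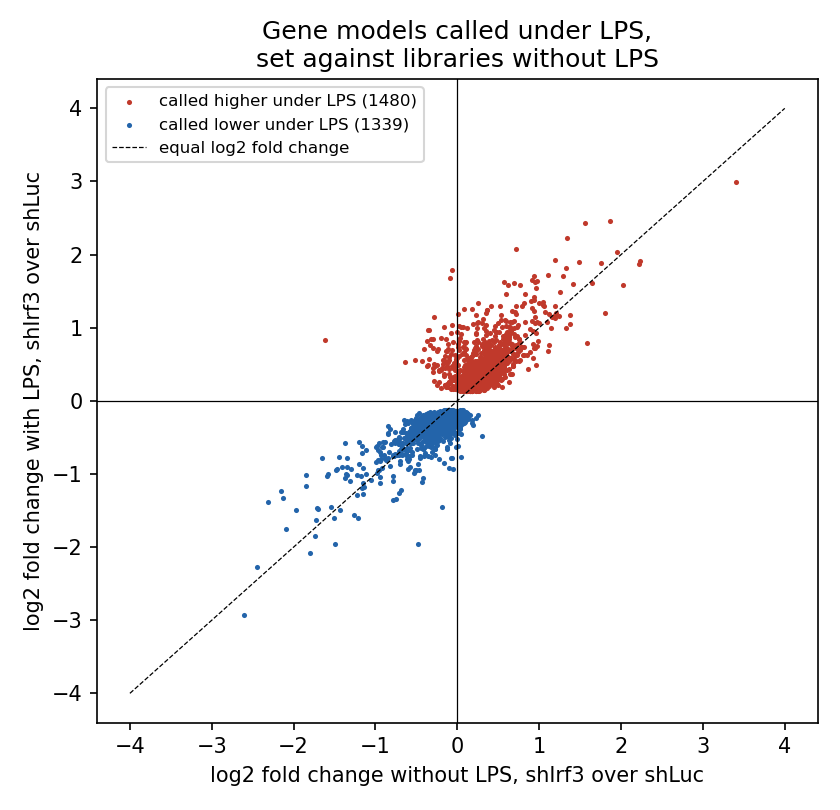
Log2 fold change with LPS, shIrf3 + LPS over shLuc + LPS (vertical axis), against that without LPS, shIrf3 over shLuc (horizontal axis), for gene models called higher (red, 1480) or lower (blue, 1339) with LPS and tested in both. Most red points lie right of 0 and most blue points left of 0, that is 93.0% and 92.4% of them.

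The shorter list without LPS came with a wider spread, a biological coefficient of variation of 0.116 against 0.0551 with LPS, and it moved with single libraries. It held 960 gene models higher and 557 lower without shLuc replicate 1, and 668 and 435 without shLuc replicate 2, whereas it held 16 and 22 without shLuc replicate 3 and 11 to 20 and 16 to 31 without any one shIrf3 library. Called in both were then 628 higher and 378 lower without shLuc replicate 1, 433 and 243 without shLuc replicate 2, 13 and 20 without shLuc replicate 3, and 10 to 18 and 15 to 28 without any one shIrf3 library. The share with the same sign stayed between 87.1% and 98.3% in every setting and leave-one-out fit run.

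Whether the effect of the hairpin differed with LPS was tested as an interaction over the 12 libraries of the 4 groups. Any difference in time after transduction between the groups with and without LPS would enter this contrast too. Of 14970 gene models, 0 passed an adjusted p of 0.05 in edgeR, where the smallest was 0.0513, and 848 (5.66%) had an unadjusted p under 0.05. DESeq2 called 10 with a more positive and 5 with a more negative log2 fold change under LPS, and limma-voom called 0. Without shLuc replicate 1 edgeR called 4 and 11, and without shLuc replicate 2 it called 14 and 2, with 1561 and 1987 gene models at an unadjusted p under 0.05. Among the 2848 gene models called under LPS the median standard error of the interaction was 0.13 on the log2 scale. Differences several times their standard error were not called, such as 0.75 with a standard error of 0.13 for uc009oco.1.

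The gene model with the smallest interaction p, uc008jfl.1 on the minus strand of chromosome 2 (32240157 to 32243259, 6 exons), was abundant in the libraries with LPS and scarce in the others of these 12. Scaled over the 12 libraries, it had 144, 145 and 126 CPM in shIrf3 + LPS, against 164, 145 and 149 CPM in shLuc + LPS. Without LPS it had 1.58, 1.20 and 1.17 CPM in shIrf3, against 0.306, 0.597 and 0.343 CPM in shLuc. The log2 fold change was -0.14 (SE 0.06) with LPS and 1.65 (SE 0.31) without it, and their difference was -1.78 (SE 0.26, edgeR adjusted p = 0.0513, DESeq2 adjusted p = 8.28e-05). A second gene model with a negative difference, uc009mgm.2 on the plus strand of chromosome 8 (75168242 to 75238645, 20 exons), had 3.12, 2.80 and 2.75 CPM in shIrf3 + LPS, against 2.36, 1.75 and 2.57 CPM in shLuc + LPS. Without LPS its values were 7.27, 5.18 and 6.02 CPM in shIrf3, against 1.67, 1.93 and 2.17 CPM in shLuc, and the difference of log2 fold changes was -1.29 (SE 0.26, edgeR adjusted p = 0.354, DESeq2 adjusted p = 0.0211). Both stood above the control in the knockdown libraries without LPS, and with LPS neither was called.

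Among positive differences, uc009oco.1 on the plus strand of chromosome 9 (7445822 to 7455974, 10 exons) had 71.6, 73.8 and 77.7 CPM in shIrf3 + LPS, against 53.3, 49.4 and 60.9 CPM in shLuc + LPS. It was called higher under LPS, where the log2 fold change was 0.45 and its standard error 0.07 (edgeR adjusted p = 0.000304). Without LPS it had 13.5, 12.7 and 13.1 CPM in shIrf3, against 15.1, 18.4 and 15.2 CPM in shLuc. The log2 fold change there was negative but not called, at -0.30 (SE 0.11, edgeR adjusted p = 0.181). The difference was 0.75 (SE 0.13, edgeR adjusted p = 0.166, DESeq2 adjusted p = 0.00144). The gene model uc009abn.2 on the minus strand of chromosome 5 (137537376 to 137548142, 9 exons) had 21.9, 21.7 and 25.9 CPM in shIrf3 + LPS, against 22.3, 21.7 and 21.7 CPM in shLuc + LPS, whereas without LPS it had 26.7, 22.2 and 23.7 CPM in shIrf3, against 48.8, 36.4 and 37.6 CPM in shLuc. Its difference was 0.84 (SE 0.15, edgeR adjusted p = 0.267, DESeq2 adjusted p = 0.00437), and the shLuc libraries without LPS stood above the other 3 groups.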

How the data were processed

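Per the labels' protocols, 70 ng of total RNA went into ribosomal depletion and then into a TruSeq v2 library kit, whose libraries carry no strand mark. Per the submitters' processing notes, the tools were featureCounts 1.4.6, TopHat2 2.0.14, SAMtools 0.1.19, Picard 2.2.4, bcl2fastq and edgeR, with build mm9. Settings: not given in the sources used here. What the authors deposited were raw read counts per gene model, without normalization, and per the file headers positions, strand and exon length. Gene models that overlap, or near-identical copies, can lose or share reads. Of the 27473, 1497 list exons on both strands.

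The 6 libraries were fitted alone with edgeR 4.0.16 in R 4.3.3 (filterByExpr, TMM factors, robust glmQLFit, glmQLFTest). Standard errors are the absolute log2 fold change over the root of F, and a prior count of 2 entered the log2 CPM of the principal components. The fits were also run on counts simulated with the dispersions fitted here. No simulated library was set apart from its group, so that run cannot show how the fits handle an outlying library. Within the LPS groups no library repeated another: chi-square divided by its degrees of freedom was 3.38 to 15.6 for the 6 pairs, and other pairs were not checked. It was 15.6 and 13.1 between shLuc + LPS replicate 1 and replicates 2 and 3, against 3.38 between those and 5.34 to 8.17 in shIrf3 + LPS. Without that replicate 1 the calls under LPS were 1465 higher and 1324 lower. The naming rule takes called gene models at 5 CPM or more in the higher group, without overlap and on 1 strand, by size of change, or for the interaction by adjusted p, and without symbols the first 2 per direction are given. Gene lists by symbol were prepared and could not be applied. The members, rules and lists were chosen with earlier results of these data known. As alternatives, limma-voom (limma 3.58.1), DESeq2 1.42.0, other scaling, filters and libraries, the replicate number as a block, and each library left out in turn were run.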

Additional observations from a re-analysis of the deposited data

How the results depend on the processing

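For the knockdown under LPS, the numbers of gene models called higher and lower moved by over 1.5 times with 12 libraries in one fit (733 higher, 495 lower), with all 18 (205 and 173) and with a 2-fold minimum (116 and 56), and ran from 1021 to 1680 and from 820 to 1410 with each library left out. With library totals as the only scaling, 45.1% of the calls were higher, against 52.5% with TMM factors. All 4 gene models named for this comparison kept their call and direction in every alternative run. Alternatives for the libraries without LPS, for the overlap of the lists and for chromosome X, and part of those for the interaction, were added after the data were seen. Without LPS, DESeq2 called 393 higher and 350 lower, the 12-library fit 696 and 585, library totals 118 lower, and a 2-fold minimum left 36 and 51. With each library left out these ran from 11 to 960 and from 16 to 557. Called in the same direction with and without LPS were 319 higher and 239 lower in DESeq2, 386 and 258 in the 12-library fit, 89 and 87 with 18 libraries, and 96 lower with library totals, or 10 to 628 and 15 to 378 with each library left out. For the interaction, DESeq2 called 10 positive and 5 negative, no low-count filter gave 2 and 1, library totals 1 negative, and removing chromosome M or gene models on both strands 1 negative each, with 0 to 14 and 0 to 11 when each library was left out. The labels state no pairing by the numbers of the titles, and none was assumed in the main fits. Under LPS, deviations from the group means had correlations of 0.0893, -0.0143 and 0.0106 between same-numbered libraries, and -0.0642 to 0.0579 between the others. With 3 libraries per group these values cannot exclude a pairing. With the replicate block there were 1747 gene models higher and 1708 lower under LPS, 240 and 233 without LPS, and 0 for the interaction. Where a count moved, the cause was not tested. Under 1 CPM the standard errors were wider, so small changes there could be missed, and the part of depth in this was not tested.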
